A study of Mus musculus with 9 samples.

Results

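The limb motor column and pool transcription factors are 10 genes, Foxp1, Lhx1, Isl1, Isl2, Mnx1, Etv1, Etv4, Nkx6-1, Pou3f1 and Runx1, whose products mark motor neurons (MNs) of the limbs or the muscle-specific groups of MNs called pools. They were found by symbol in the annotation of the array, a gene with several probe groups (transcript clusters) being read from its brightest one, and 9 of the 10 could be measured, of 30176 genes named by a cluster of their own. The only cluster that names Etv1 also names Gm5454, so that no value was assigned to Etv1. RNA came from MNs that had been labelled from 1 hindlimb muscle by wheat germ agglutinin coupled to horseradish peroxidase (WGA-HRP), a tracer that nerve endings absorb and transport back to the soma, and were then cut out of cord sections by laser capture. There were 3 MN pools with 3 mice and 3 arrays each: the pool of the extensor digitorum longus (EDL, resistant in spinal muscular atrophy, SMA), that of the gastrocnemius (GS, intermediate) and that of the tibialis anterior (TA, vulnerable).

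All 9 mice were wild type, of the FVB strain and from a single litter of both sexes. None was diseased, although the design text of the series speaks of an SMA background. Each was injected in both hindlegs at postnatal day 14 in 1 of the muscles, with 1 µl for the EDL and 3 µl for the GS or the TA, and the cord was taken 48 h later. The labels describe 20 µm sections of cervical cord. The text of the study places these MNs in lumbar cord and its methods give a different section thickness, so that neither is settled by the sources used here. Mice are called by the numbers in the labels: M11, M14 and M33 for EDL, M13, M30 and M31 for GS, and M0, M1 and M3 for TA. The TA numbers all lie below the others, and a batch that follows the numbers cannot be told apart from the TA pool. Each array is 1 mouse, so p-values rest on the spread from mouse to mouse, and precision is limited by having 9 arrays. In such samples, fewer cells of a type and less RNA per cell cannot be told apart.

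MNs that innervate limbs lie in the lateral motor column of the spinal cord. In the embryo, Foxp1 acts with Hox proteins to set up that column, Isl1 is retained in its medial division, whose axons enter the ventral limb, and Lhx1 comes on in its lateral division, whose axons enter the dorsal limb. Single pools are then told apart by factors such as the ETS proteins Etv1 (Er81) and Etv4 (Pea3), Nkx6-1, Pou3f1 (SCIP) and Runx1. Most of this is known from mouse and chick embryos, and the mice here were past birth. The gastrocnemius is a calf muscle of ventral origin in the limb, while the EDL and TA lie side by side in the front of the shank and are of dorsal origin.

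Values are log2 signals as deposited, in which a difference of 1 is a doubling. Each was read against the probe sets of its own array that are named negative controls. Their medians lay near those of all clusters, which were 6.01 to 6.14 over the arrays. They serve here as a reference level and are not taken to be free of a target. The negative control median lay between 5.98 and 6.12 in EDL, 6.12 and 6.18 in GS and 6.27 and 6.48 in TA, and the 95th percentile between 9.62 and 9.74, 9.85 and 10.06, and 10.12 and 11 in these pools. The area under the curve that separates positive from negative controls, a measure of array quality, was 0.844 to 0.854 in EDL, 0.831 to 0.838 in GS and, for TA, 0.779 in M0, 0.778 in M1 and 0.828 in M3. Markers of MNs were strongly present. All 8 measured of 9 MN markers, among them Chat, the enzyme that makes acetylcholine, and Nefh, a neurofilament subunit and the brightest of the list, lay above the 95th percentile on every array. By the same measure glial RNA was present too, with 4 to 5 of 7 oligodendrocyte markers and 2 to 3 of 6 astrocyte markers above the 95th percentile. Chat averaged 13.57 ± 0.12 in EDL mice, 13.32 ± 0.06 in GS mice and 13.23 ± 0.33 in TA mice (SD, n = 3 each).

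The transcription factors all lay below the 95th percentile of the negative controls, Isl1 nearest to it. Of 81 member values on the 9 arrays, 57 were above the negative control median and 0 above the 95th percentile. Foxp1, Isl1, Isl2, Mnx1 and Pou3f1, 5 of the 9, were above the median on every array. Nkx6-1 was below it on every array, and the other 3, Lhx1, Etv4 and Runx1, lay on both sides of it. Of the 9, 6 had a range over all mice below 0.5, near the median range of 0.48 over all 65956 clusters. A small range is thus not particular to them. Several arrays held the very same value for 6 of the 9, as for 61.6% of all clusters. Isl1 had the widest range, 2.78, which exceeded that of 99.2% of clusters. The range of Mnx1 (0.88) exceeded that of 77.7% and the range of Nkx6-1 (0.53) that of 55.7%.

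**Figure D1:**
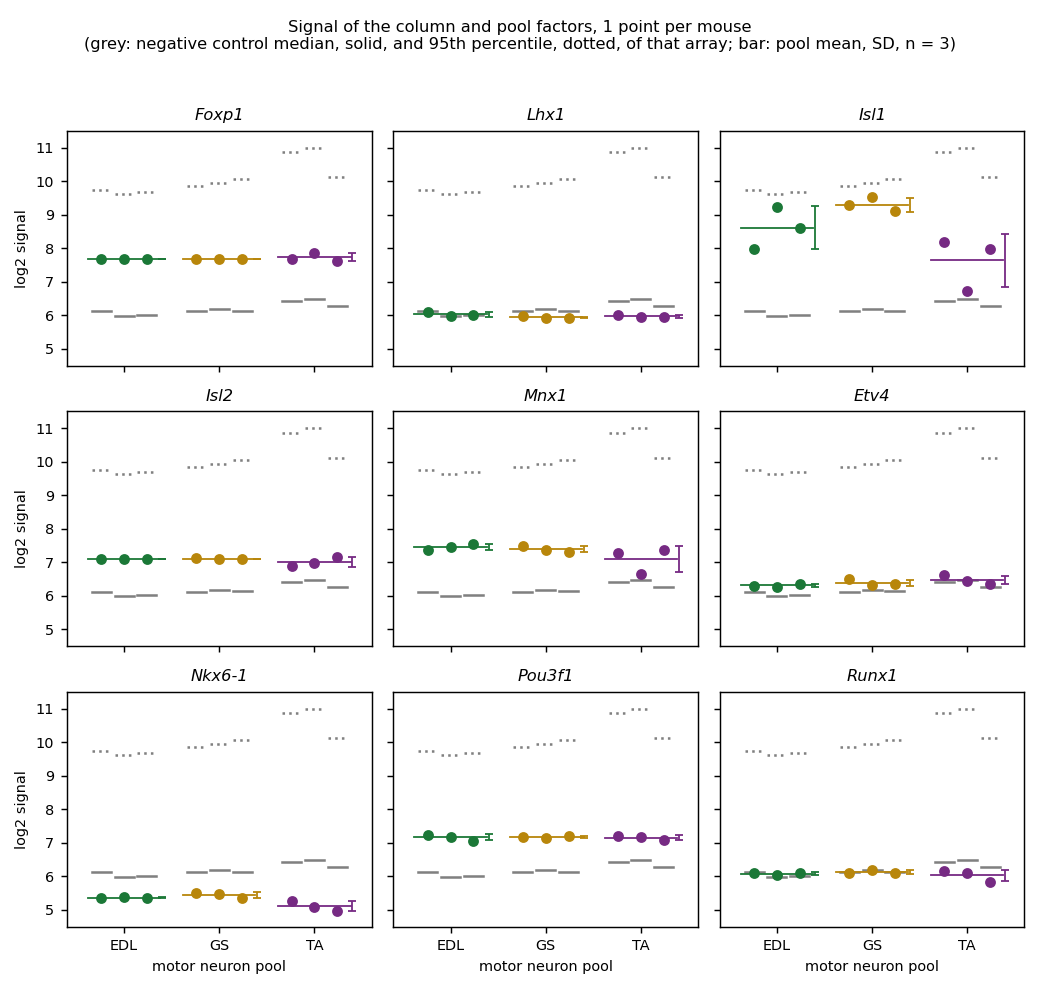
Log2 signal of the 9 measured factors in each mouse (points), by MN pool, with the pool mean and SD (bars, n = 3) and, in grey, the median (solid) and 95th percentile (dotted) of the negative controls of each array. Isl1 spans 6.74 to 9.52, while most other factors stay nearly flat, and no point reaches its dotted line.

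The bases upstream of the start site are shown for the 3 genes on which the comparisons turn most, Isl1 and Nkx6-1, whose GS values all lay above the TA values, and Lhx1, the counterpart of Isl1 in the column. Each run holds 250 bases from RefSeq on GRCm38.p6, the reference strain and not FVB, written 5′ to 3′ on the strand of the gene. Capitals mark the homeodomain core TAAT on either strand, the letters that LIM-homeodomain and Nkx6 proteins can bind. The 3 stretches are chr13:116309689-116309938 (minus strand) for Isl1, chr11:84525535-84525784 (minus strand) for Lhx1 and chr5:101664712-101664961 (minus strand) for Nkx6-1.
Isl1: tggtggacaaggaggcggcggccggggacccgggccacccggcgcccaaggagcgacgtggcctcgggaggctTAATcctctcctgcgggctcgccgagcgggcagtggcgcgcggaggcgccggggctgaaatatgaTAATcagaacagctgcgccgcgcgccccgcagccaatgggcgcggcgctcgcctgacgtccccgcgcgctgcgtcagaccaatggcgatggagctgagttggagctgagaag
Lhx1: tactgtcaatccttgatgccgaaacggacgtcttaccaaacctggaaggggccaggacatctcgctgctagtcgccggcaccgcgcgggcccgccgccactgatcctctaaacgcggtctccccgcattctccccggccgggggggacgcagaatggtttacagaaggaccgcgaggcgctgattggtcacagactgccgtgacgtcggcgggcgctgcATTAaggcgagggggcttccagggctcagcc
Nkx6-1: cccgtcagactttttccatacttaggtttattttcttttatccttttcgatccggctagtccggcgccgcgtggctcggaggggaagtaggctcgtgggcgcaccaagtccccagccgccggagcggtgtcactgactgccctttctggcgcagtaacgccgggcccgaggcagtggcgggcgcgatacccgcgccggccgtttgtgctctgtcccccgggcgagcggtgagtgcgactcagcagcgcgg
The stretch of Isl1 holds 2 matches, that of Lhx1 holds 1 and that of Nkx6-1 holds 0. The core was present in 8 of the 12 starts listed for the 8 members with an entry (66.7%) and in 54.9% of 32851 mouse promoters of the same length, so a match is common and is given only as a description. These stretches are GC-rich, at 71.2% for Isl1, 64.8% for Lhx1 and 65.2% for Nkx6-1, against a median of 52.4% over all promoters.

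No member passed the test between EDL and TA MNs, the main comparison of the study, in which 5.08% of all clusters did (limma, adjusted p under 0.05). None passed between GS and TA either, where 0.634% of clusters were called. None passed between EDL and GS or between GS and the mean of EDL and TA, where 0% of clusters were called. Before adjustment, at p under 0.05, Nkx6-1 alone passed for EDL against TA (1 of 9, against 22.8% of clusters), and Isl1 and Nkx6-1 passed between GS and TA (2 of 9, against 15.7%). The EDL to TA count of 1 became 3 after centring each array on its median and 7 after quantile normalization. The share of 22.8% holds for the deposited scaling only. Calls over all clusters moved too, at an adjusted p under 0.05. Those higher in EDL than in TA went from 1884 to 2708 and 3899, and those lower from 1467 to 1438 and 1772. These counts are at another threshold than those of the members, so they cannot decide whether the rise is particular to the members. That was not tested. At the unadjusted threshold, Isl1 and Nkx6-1 passed between GS and the mean of EDL and TA (2 of 9, against 4.77%), and 0 of 9 passed between EDL and GS (against 3.67%). A plain unmoderated test also called 0 members in each comparison at the adjusted threshold. The median difference of the members was 0.06 for EDL minus TA, against -0.04 over all clusters and 0 over the 30176 named genes. For GS minus TA it was 0.09, against -0.02 and 0, and for EDL minus GS -0.01, against -0.02 and 0.

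**Figure D2:**
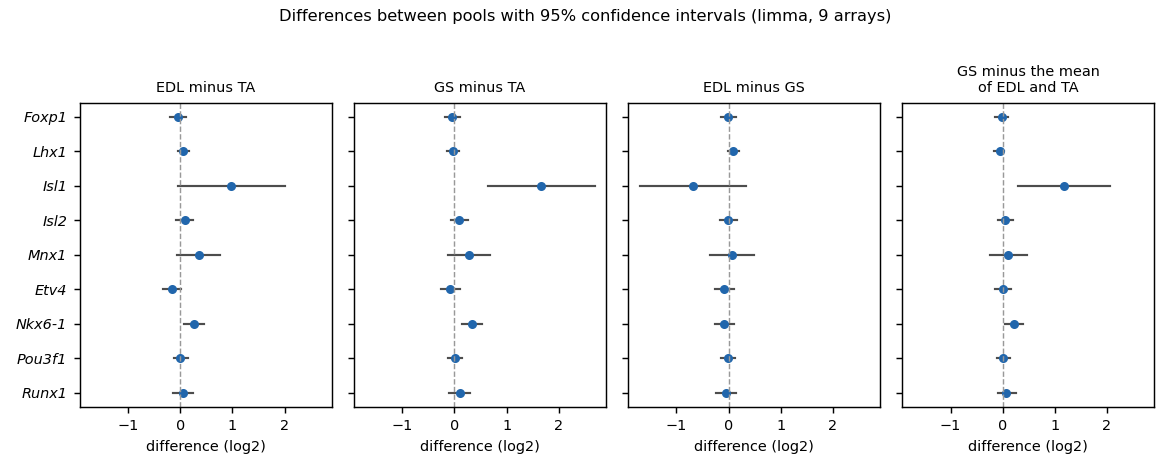
Differences in log2 signal between pools for the 9 measured factors, with 95% confidence intervals from limma on all 9 arrays. The Isl1 and Nkx6-1 intervals exclude 0 for GS minus TA and for GS minus the mean of EDL and TA, and that of Nkx6-1 also for EDL minus TA, before adjustment over all clusters.

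Foxp1, the column factor, was nearly constant. It read 7.69, 7.69 and 7.67 in EDL MNs (M11, M14, M33) and 7.69 in each of the 3 GS mice, against 7.69, 7.86 and 7.63 in TA MNs (M0, M1, M3). The TA values enclosed the EDL and GS values, and 5 of the 9 arrays held exactly the same value. EDL minus TA was -0.04, with a 95% confidence interval of -0.19 to 0.10 (limma adjusted p = 0.708), and GS minus TA was -0.04 (-0.18 to 0.10, adjusted p = 0.80).

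Lhx1, the LIM-homeodomain factor of the lateral division, read 6.10, 5.97 and 6.02 in EDL mice, 5.97, 5.93 and 5.92 in GS mice and 6.01, 5.95 and 5.94 in TA mice. All 3 pools overlapped. The gene was below the negative control median on 8 of the 9 arrays, so it did not stand out from these controls. Its differences are those of a signal at their level. The EDL minus TA difference was 0.06 (-0.05 to 0.17, adjusted p = 0.481), GS minus TA was -0.03 (-0.14 to 0.08) and EDL minus GS was 0.09 (-0.02 to 0.20).

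Isl1, the LIM-homeodomain factor of the medial division and of MNs as they are born, was highest in GS MNs. It read 9.28, 9.52 and 9.10 in GS MNs (M13, M30, M31), against 8.20, 6.74 and 7.98 in TA MNs. Each GS value lay above each TA value, as in 7.53% of all clusters. In EDL MNs it read 7.99, 9.24 and 8.61. EDL thus overlapped both other pools, with M14 among the GS values and M11 among the TA values. The pool means were 8.62 ± 0.63 in EDL, 9.30 ± 0.21 in GS and 7.64 ± 0.79 in TA (SD, n = 3 each). In no array was Isl1 above the 95th percentile of the negative controls. It exceeded between 76.8% and 93.5% of them on 8 arrays and 54.6% on that of TA mouse M1.

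The GS minus TA difference of Isl1 was 1.66 ± 0.44 (SE, interval 0.64 to 2.69) and did not pass (limma adjusted p = 0.135). EDL minus TA was 0.98 ± 0.44 (-0.05 to 2.0, adjusted p = 0.238). With TA mouse M1 only 0.26 above its negative control median, these are differences of signal and no exact measure of a transcript ratio. EDL minus GS was -0.68, with an interval of -1.71 to 0.34 (adjusted p = 1). GS stood 1.17 ± 0.38 above the mean of EDL and TA (0.29 to 2.06, adjusted p = 0.973), and the pools overlapped through EDL mouse M14. The order GS, EDL, TA therefore holds for the means, and its neighbours did not differ beyond the spread between mice. Without TA mouse M1 the GS minus TA difference was 1.21 (adjusted p = 0.218) and the EDL minus TA difference 0.53 (0.463). Over 17 alternative settings, GS minus TA stayed between 1.21 and 1.94, at adjusted p from 0.0737 to 0.342, and was called in 0 of them.

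Marker levels of other kinds stood beside these Isl1 values. The mean signal of the 8 MN markers was 14.16 to 14.26 in EDL, 13.75 to 13.89 in GS and for TA, 13.38 in M0, 13.37 in M1 and 14.09 in M3. It was highest in EDL, so its order over the pools was not that of Isl1, and 2 of the TA mice, with the lowest array quality, were lowest. Isl1 is also made by a class of spinal interneurons. The interneuron markers used here are a general list and were not chosen to mark that class. The mean of 8 interneuron markers was 7.43 to 7.69 in EDL, 7.73 to 8.46 in GS and 7.42 to 7.74 in TA, with the highest value in GS mouse M30, the mouse that was also highest in Isl1. Slc32a1, the vesicular transporter of inhibitory transmitters, read 7.35, 7.38 and 7.70 in EDL mice, 8.0, 9.25 and 8.01 in GS mice and 7.32, 7.30 and 7.31 in TA mice, each GS value above each value of the other pools (GS minus TA 1.12, adjusted p = 0.16). On every array 1 of these 8 markers was above the 95th percentile of the negative controls. This was Slc6a5, the glycine transporter, the brightest of the list. Without GS mouse M30, GS minus TA for Isl1 was 1.55 (adjusted p = 0.342). Pvalb and Gad1 were, like Slc32a1, above every TA value in all 3 GS mice (GS minus TA 0.67 and 0.25), as were 7.53% of all clusters. The rest of the list, Slc6a5, Gad2, Slc17a6, Calb1 and Sst, overlapped between GS and TA. Slc17a6 read 6.46, 7.96 and 6.21 in GS mice (M13, M30, M31) and 6.71, 6.25 and 6.79 in TA mice. The part of interneuron RNA in the Isl1 values was not tested.

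**Figure D3:**
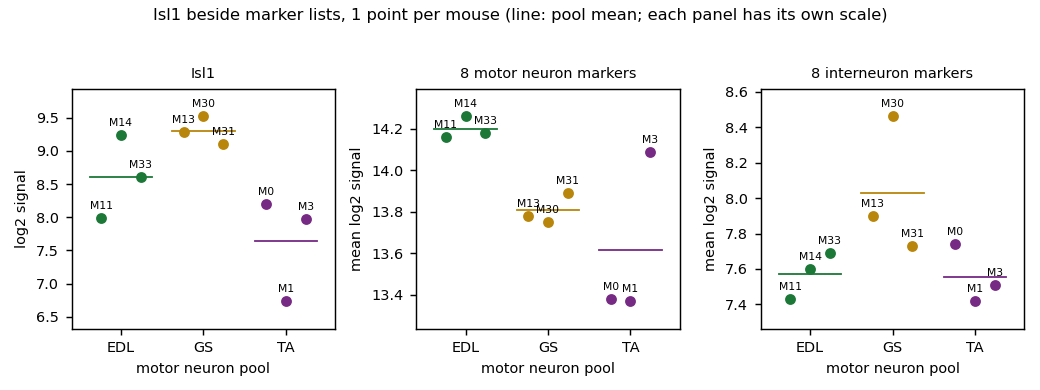
Log2 signal of Isl1 (left) beside the mean log2 signal of 8 MN markers (middle) and 8 interneuron markers (right) in each mouse, with lines at the pool means and a scale of its own in each panel. GS holds the highest Isl1 mean, EDL the highest mean of the MN markers, and GS mouse M30 the highest single value of Isl1 and of the interneuron markers.

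Since Isl1 and Lhx1 mark opposite divisions of the column, the difference of their log2 signals was taken within each array and compared between arrays. It was 3.32, 3.59 and 3.18 in GS MNs, 1.88, 3.28 and 2.59 in EDL MNs and 2.18, 0.78 and 2.03 in TA MNs. EDL mouse M14 lay inside the GS range, and all other EDL and TA mice lay below it. GS averaged 3.36 ± 0.21 (SD, n = 3), against 2.13 ± 0.83 over EDL and TA together (n = 6), a difference of 1.23 (exact permutation test, two-sided, p = 0.0595, adjusted over 4 comparisons p = 0.20). Without EDL mouse M14 it was 1.47 (exact p = 0.0179, unadjusted). That mouse alone lay in the GS range from outside GS, so leaving it out fixed a full separation. This p therefore decides nothing. On leaving out any other single mouse, the exact p was between 0.0536 and 0.179, unadjusted. Single pools gave 0.92 for EDL minus TA (exact p = 0.30), 1.69 for GS minus TA (exact p = 0.10) and -0.78 for EDL minus GS (exact p = 0.20), where 3 mice against 3 cannot go below 0.10. As Lhx1 stayed near the negative control median, this measure is in effect that of Isl1.

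The 2 factors that MNs share across columns did not separate the pools. Isl2, a close relative of Isl1, read 7.09 in each of the 3 EDL mice, 7.12, 7.09 and 7.09 in GS and 6.88, 6.97 and 7.17 in TA MNs. The TA values enclosed those of both other pools, with 5 arrays at exactly the same value, and EDL minus TA was 0.09 (-0.08 to 0.25, adjusted p = 0.507). Without TA mouse M3, the one TA mouse above the others in Isl2, the gene was called higher than in TA, by 0.17 in EDL (limma adjusted p = 0.0356) and by 0.18 in GS (adjusted p = 0.0408). With TA mice M0 and M1 left out instead, both differences were -0.07 (adjusted p = 0.296 for EDL and 0.397 for GS).

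Mnx1 (HB9), which MNs need to hold back interneuron genes, read 7.37, 7.45 and 7.54 in EDL and 7.48, 7.38 and 7.31 in GS MNs, against 7.28, 6.66 and 7.38 in TA MNs. The pools overlapped through TA mouse M3, and TA mouse M1 was lowest, as it was in Isl1. EDL minus TA was 0.35 ± 0.18 (SE, interval -0.06 to 0.76, adjusted p = 0.293), and GS minus TA was 0.28 (adjusted p = 0.487). Without TA mouse M1 these were 0.12 and 0.06, so that mouse carried most of the difference.

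Of the pool factors, Etv4, the ETS protein that some brachial and lumbar pools switch on when their axons reach the limb, had its highest value in TA. It read 6.29, 6.27 and 6.36 in EDL and 6.49, 6.32 and 6.36 in GS MNs, against 6.62, 6.43 and 6.36 in TA MNs. EDL met TA at 6.36, and EDL minus TA was -0.16 (-0.34 to 0.02, adjusted p = 0.264). All but 1 of the values were above the negative control median, by at most 0.36.

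Nkx6-1, a homeodomain protein of MN progenitors that some pools retain, was lowest in TA MNs. It read 5.35, 5.38 and 5.35 in EDL and 5.50, 5.48 and 5.35 in GS MNs, against 5.27, 5.07 and 4.96 in TA MNs. Every EDL and every GS value lay above each TA value, as in 9.23% of clusters for EDL and 7.53% for GS. EDL minus TA was 0.26 ± 0.08 (SE, interval 0.07 to 0.45, adjusted p = 0.114) and GS minus TA was 0.34 ± 0.08 (0.15 to 0.53, adjusted p = 0.107), so neither passed. Without TA mouse M0, the highest of the 3, EDL minus TA was 0.34 and was called (adjusted p = 0.0488). All 9 values lay below the negative control median, above only 23.5% to 37.1% of the controls, and that median was itself higher in TA. The size of a difference between such values is not a measure of a transcript difference.

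Pou3f1, a POU protein of some limb pools that myelinating glia also make, read 7.24, 7.17 and 7.06 in EDL mice, 7.17, 7.13 and 7.20 in GS mice and 7.21, 7.17 and 7.07 in TA mice. The pools overlapped throughout. Between EDL and TA the difference was 0.00 (-0.13 to 0.14). Runx1, a Runt protein of a few cervical pools that microglia make as well, read 6.10, 6.03 and 6.10 in EDL mice, 6.10, 6.18 and 6.10 in GS mice and 6.16, 6.10 and 5.83 in TA mice. It lay within 0.09 of the negative control median in EDL and GS and 0.26 to 0.44 below it in TA, with 5 arrays sharing a value, and EDL minus TA was 0.05 (-0.15 to 0.25).

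No member met the trend criterion of the study's methods, a GS mean between the other means together with an EDL to TA difference at an unadjusted p under 0.05, which 8.16% of clusters met with higher and 11.8% with lower values in EDL. Nkx6-1 met the part on p, but its GS mean of 5.44 ± 0.08 lay above its EDL mean of 5.36 ± 0.02, against 5.10 ± 0.15 in TA. This count depends on the scaling of the arrays. It was 1 (Lhx1) after the same centring and 5 (Foxp1, Lhx1, Isl2, Mnx1 and Pou3f1) after quantile normalization. No share of all clusters is given for these scalings. The members' median for EDL minus TA became 0.15 and 0.19 under these scalings. Still no member was called, with a smallest adjusted p of 0.0519 and 0.0509 for EDL minus TA.

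Genes around these factors were read from 4 wider lists, of which 71 genes were measured. The lists were written with earlier results of these data known, so their counts are a description. Among 9 measured of 11 paralogues of the members, 1 was called higher and 0 lower between EDL and TA, against 2.86% and 2.22% of all clusters. Nkx6-2, the close relative of Nkx6-1 in MN progenitors and later in oligodendrocytes, read 8.16, 8.05 and 8.12 in EDL and 8.01, 8.32 and 8.06 in GS MNs, against 7.23, 7.30 and 7.64 in TA MNs. TA thus lay below both other pools without overlap, as in 9.23% of clusters against EDL and 7.53% against GS. EDL exceeded TA by 0.72 (limma adjusted p = 0.0257). The call was made in 9 of 17 alternative settings and lost when TA mice M0 and M1 were left out (0.47, adjusted p = 0.148). It was also lost on leaving out any 1 of the EDL mice or of TA mice M0 and M1, at adjusted p from 0.0629 to 0.0975. Markers of oligodendrocytes, 7 measured of 9 with Mag brightest, averaged 11.45 to 11.56 in EDL, 11.63 to 11.64 in GS and 11.42 to 11.78 in TA, ranges that overlapped between EDL and TA. These markers did not move one way. Mog and Cnp had lower means in TA than in EDL, and the other measured markers had higher ones. Mog read 11.80, 11.73 and 11.80 in EDL mice and 11.80, 11.38 and 11.26 in TA mice. The next paralogues by size of the test statistic were Foxp4 at -0.15 (adjusted p = 0.0619), Foxp2 at -0.06 and Nkx6-3 at -0.05.

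Among 18 measured of 20 progenitor and generic MN factors, 1 was called higher and 0 lower between EDL and TA, where 5.08% of all clusters were called. Sox11, a factor of immature neurons and of axon growth, read 9.34, 9.45 and 9.30 in EDL and 9.03, 9.22 and 9.15 in GS, against 8.54, 8.65 and 9.04 in TA MNs. EDL exceeded TA by 0.62 (adjusted p = 0.0407), and TA mouse M3 overlapped GS but not EDL. The call was made in 6 of 17 alternative settings, and leaving out TA mice M0 and M1 the difference was 0.32 (adjusted p = 0.166). Leaving out any 1 mouse other than TA mouse M3 also ended it, at adjusted p up to 0.14. Lmo1, a LIM-only protein, was at 0.73 (adjusted p = 0.107), Irx3, a homeodomain protein of the progenitor domains, at 0.26 (0.116) and Onecut2 at -0.06.

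Surface molecules, receptors and enzymes tied to these factors formed the longest list, and of 26 measured of 28, 3 were called lower and 0 higher between EDL and TA and 1 lower between GS and TA. Over all clusters 2.22% were called lower and 2.86% higher in EDL than in TA, and 0.249% lower in GS than in TA. Before adjustment, at p under 0.05 by limma, 13 of 26 passed between EDL and TA (against 22.8% of clusters) and 8 between GS and TA (15.7%). A further 3 of 26 passed between EDL and GS (3.67%) and 5 between GS and the mean of EDL and TA (4.77%). The median difference of the list was -0.15 for EDL minus TA, against -0.04 over all clusters, and -0.23 for GS minus TA, against -0.02. As the list was written with earlier results known, these counts and medians are no test of it. Nrp2, a semaphorin receptor that steers limb axons, read 11.44, 11.29 and 11.22 in EDL and 11.89, 11.70 and 11.94 in GS, against 12.12, 12.35 and 11.97 in TA MNs. The 3 pools did not overlap, in the order TA, GS, EDL. No share of all clusters that separate in this order is given, so the order is a description. The difference between EDL and TA was -0.83 (adjusted p = 0.0162), called in 13 of 18 alternative settings, and it was -0.65 when TA mice M0 and M1 were left out (0.0791). It also missed the threshold without EDL mouse M14 (adjusted p = 0.0725) or M33 (0.0741).

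Lrp8, a receptor of the reelin pathway that positions MNs, read 9.73, 9.90 and 9.70 in EDL and 9.64, 9.90 and 9.90 in GS, against 10.35, 10.16 and 10.18 in TA MNs. TA lay above both other pools, for which no share of all clusters is given. EDL minus TA was -0.45 (adjusted p = 0.0425, called in 5 of 18 alternative settings). Cdh7, a cadherin, read 8.09, 8.08 and 8.09 in EDL and 7.85, 7.97 and 8.09 in GS, against 8.35, 8.36 and 8.38 in TA MNs. It was called lower than in TA in both other pools, with differences of -0.28 for EDL (adjusted p = 0.0489) and -0.39 for GS (adjusted p = 0.0481), calls made in 3 and 2 of 17 alternative settings. After quantile normalization its EDL minus TA difference was -0.10 (adjusted p = 0.322). With TA mice M0 and M1 left out neither gene was called, Lrp8 at -0.40 (adjusted p = 0.214) and Cdh7 at -0.29 in EDL (0.197). Single mice decided these calls as well. That of Lrp8 was kept on leaving out GS mouse M13 or TA mouse M3 and lost on leaving out any other (adjusted p up to 0.142). That of Cdh7 between EDL and TA was kept only without GS mouse M13 or M31 (up to 0.15 without others), and that between GS and TA only without TA mouse M3 (up to 0.185). Dab1, the adaptor of the reelin receptors, was at -0.34 (adjusted p = 0.0629).

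Of 23 interneuron transcription factors, 19 were measured and 0 were called in any of the 4 comparisons, by limma at an adjusted p under 0.05. Before adjustment 1 of 19 passed between EDL and TA (against 22.8% of clusters), 0 between GS and TA (15.7%), 2 between EDL and GS (3.67%) and 0 between GS and the mean of EDL and TA (4.77%). By test statistic between EDL and TA the first were Prdm8 at 0.24 between EDL and TA (adjusted p = 0.0706), Dmrt3, Gata2 and Pou4f1. The list's median was -0.01 for EDL minus TA and 0.01 for GS minus TA.

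**Figure D4:**
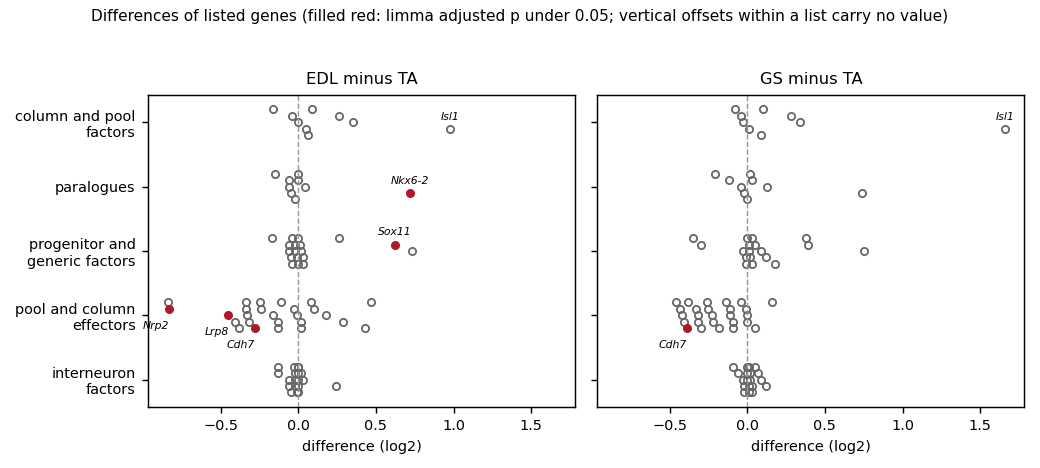
Differences in log2 signal of each measured factor and of the genes of the 4 wider lists, for EDL minus TA (left) and GS minus TA (right), with filled points for genes called by limma. Column and pool factors lie near 0 apart from Isl1 at 0.98 and 1.66, Mnx1 at 0.35 and 0.28 and Nkx6-1 at 0.26 and 0.34. The called genes are Nkx6-2, Sox11, Nrp2, Lrp8 and Cdh7.

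Markers of the other cells that a captured section could hold were present at various levels. Astrocyte markers, 6 measured of 7 with Slc1a2 brightest, averaged 10.15 to 10.46 in EDL mice, 10.12 to 10.46 in GS mice and 10.24 to 10.63 in TA mice, with 2 to 3 of the 6 above the 95th percentile of the negative controls. They did not move one way. Slc1a2 was called lower in EDL than in TA (-0.43, adjusted p = 0.0438). The EDL minus TA difference was 0.90 for Aldoc (adjusted p = 0.052) and 0.30 for Gfap. Each EDL value of Aldoc lay above each TA value, as in 9.23% of clusters. Microglial markers, 9 measured of 10 with Cx3cr1 brightest, averaged 6.84 to 6.93 in EDL, 6.86 to 6.95 in GS and 6.57 to 6.83 in TA, with 0 of the 9 above the 95th percentile of the negative controls on any array. Of these, Ctss was higher than in TA by 0.67 in EDL (adjusted p = 0.0261) and by 0.76 in GS (adjusted p = 0.0472). TA mouse M3, lowest in Runx1, was also lowest in these markers. Endothelial markers, 6 of 6 with Cldn5 brightest, averaged 8.01 to 8.26 in EDL, 8.23 to 8.51 in GS and 8.22 to 8.66 in TA, with a list median of -0.40 for EDL minus TA. Before adjustment all 6 passed between EDL and TA, against 22.8% of all clusters. Flt1, Kdr, Cdh5, Tek and Pecam1 had lower values in EDL (-0.32 to -0.87) and Cldn5 had higher ones. Cldn5 was the only one called after adjustment (1.27, adjusted p = 0.0331). The part of such cells in the values of Pou3f1, Runx1 and Nkx6-2 was not tested.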

How the data were processed

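Log2 signals came from 9 Mouse Transcriptome Assay 1.0 arrays, 1 per mouse, 3 per MN pool. The authors background-corrected, normalized and summarised the probes to 1 log2 value per transcript cluster before the values were deposited (the methods name sst-RMA, the submitters' processing notes RMA and Transcriptome Analysis Console). These values, from 2.76 to 19.51, were analysed unscaled. The 72688 probe sets include 6732 array controls, and the remaining 65956 clusters were tested with no filter on dim values. Ties between arrays were counted at 5 decimals.

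Genes were named by platform annotation where a cluster carried 1 symbol (30638 clusters). A gene with several was read from its brightest cluster. No symbol was changed by the GRCm38.p6 gene table. Differences were tested with limma 3.58.1 under R 4.3.3, 1 mean per pool over all 9 arrays, two-sided, Benjamini-Hochberg adjusted over 65956 clusters at 0.05, and with exact permutation tests for Isl1 minus Lhx1. The procedure was tested on simulated data. The members and lists were chosen with earlier results of these data known. Named are all members, in each wider list up to 4 genes with the largest moderated t between EDL and TA and every called gene, the brightest gene of each marker list, and genes on which a result turns. Slc32a1, Pvalb, Gad1, Gad2, Slc17a6, Calb1, Sst, Chat, Mog, Cnp, Ctss, Aldoc, Gfap and the other endothelial genes were named after their values were seen. Alternatives were 2 other scalings, a filter at the 95th percentile of the negative controls, other estimates of the spread, array weights, a plain test, and leaving out mice. Promoters are RefSeq sequence of GRCm38.p6, with entries for 8 of the 10 members (not Etv4 or Pou3f1), with TAAT counted on both strands.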

Additional observations from a re-analysis of the deposited data

How the results depend on the processing

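No paired analysis was possible because no mouse number is shared between pools. The members called between EDL and TA, 0 in all 9 arrays, were 0 to 1 when single mice were left out, 1 without TA mouse M0 (Nkx6-1) and 1 without TA mouse M3 (Isl2). Between GS and TA the range was 0 to 1, 1 without TA mouse M3 (Isl2). Members meeting the trend criterion, 0 as deposited, were 1 after centring, 5 after quantile normalization, 1 with array weights and 0 to 2 on leaving out single mice. Isl1 minus Lhx1, GS against EDL and TA, ran from 0.97 to 1.47 on leaving out single mice and was 0.91 without TA mice M0 and M1. Among the wider lists, the 2 genes higher in EDL than in TA became 0 with the filter at the 95th percentile, with the spread of the compared pools only, with the plain test and without TA mice M0 and M1, and 0 to 5 on leaving out single mice. The 3 lower in EDL became 1 after centring, with the trended and robust prior, with array weights and with the plain test, 0 with the compared pools alone and without M0 and M1, and 0 to 7 on leaving out single mice. For GS against TA, the 0 higher became 2 after quantile normalization and 0 to 3 on leaving out single mice, and the 1 lower became 2 with the filter, 0 to 4 on leaving out single mice, and 0 with centring, quantile normalization, the compared pools alone, the trended prior, array weights, the plain test and without M0 and M1. The highest count in each range of the wider lists came without TA mouse M3. The cause was not tested. No share over all clusters stands beside these counts, so they are no result about the lists or the members. Calls higher in EDL than in TA were 56.2% of all calls as deposited, 65.3% after centring and 68.8% after quantile normalization. Of 1201 comparisons over 19 alternatives, 1074 were counted as the same, 127 were not, and 0 called values reversed. Tests counted as the same if they kept their side of the threshold, and counts if they changed little. Among those counted as the same, 56 uncalled values changed sign. The filter kept 6824 clusters and 0 members, so it gave no member a value. Signal within the range of the negative controls limits all 9 measured members, as none had a value above their 95th percentile.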
